A study of Mus musculus with 12 samples.

Results

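The genes that set and sense the level of the hypoxia-inducible factors (HIFs) were followed in the left ventricle (LV) of adult mouse offspring. They comprised 9 genes, found by their symbols among the 46983 genes of the count files, and all 9 passed the filter on low counts. The HIF subunits were Hif1a, Epas1, Hif3a and Arnt, the prolyl hydroxylases were Egln1, Egln2 and Egln3, and Vhl and Hif1an completed the set. The 12 offspring were 12 weeks old and fell into 4 groups of 3 animals from several litters: Wt and Hif1a+/- from non-diabetic pregnancy, and Wt and Hif1a+/- from diabetic pregnancy, here called non-diabetic Wt, diabetic Wt, non-diabetic Hif1a+/- and diabetic Hif1a+/-. The dams of all groups were Wt mice of the inbred FVB strain, and the sires were Hif1a+/- males that carried the Hif1a tm1jhu null allele on an FVB background. Diabetes had been induced in the dams with streptozotocin before mating, whereas the offspring received no agent. The deletion is global, present in every cell type from conception, so a change in cardiomyocytes cannot be told apart from one in other cells of the LV.

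A HIF is a pair of an oxygen-labile alpha subunit, encoded by Hif1a, Epas1 (HIF-2 alpha) or Hif3a, and the stable partner encoded by Arnt (HIF-1 beta). When oxygen is present, the prolyl hydroxylases hydroxylate the alpha subunit, and the ubiquitin ligase that holds the von Hippel-Lindau protein (Vhl) marks it for degradation, while the asparaginyl hydroxylase encoded by Hif1an blocks its transcriptional activity. HIF abundance is thus set largely at the protein level, which was not measured here, and Egln1 and Egln3 are themselves known targets of HIF. In the heart, HIF-1 is known for its part in glycolytic gene expression and vessel growth.

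The tm1jhu allele is known to lack exon 2, which encodes the basic helix-loop-helix region through which the protein binds DNA and pairs with Arnt. In the GENCODE M21 annotation of GRCm38, Hif1a (ENSMUSG00000021109) lies on the plus strand of chromosome 12 from 73901375 to 73947530. Exon 2 of the transcript Hif1a-201, which has 15 exons, covers chr12:73926557-73926747 and is 191 bases long. It is shown because it is the stretch that separates the null from the intact allele, and its end is 4112 bases from the 3′ end of the transcript.
Hif1a exon 2: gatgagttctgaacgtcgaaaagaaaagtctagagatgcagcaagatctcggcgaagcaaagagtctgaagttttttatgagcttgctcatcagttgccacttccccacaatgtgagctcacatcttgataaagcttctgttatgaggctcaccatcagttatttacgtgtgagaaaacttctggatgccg
The libraries were 3′-seq, so that reads come from the last part of a transcript, and the files give one count per gene without positions. Reads from the 3′ end lie outside the deleted exon, so the Hif1a count does not check the genotype labels and cannot be divided between the alleles.

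HIFs bind DNA at the core ACGTG or GCGTG, so the 8 genes with an entry among the RefSeq promoters (GRCm38.p6, 250 bases before to 50 after the start of each gene) were searched for ACGTG and, separately, for GCGTG on both strands. ACGTG was present in 4 of the 8, namely Hif1a, Egln1, Egln2 and Egln3, against 21.8% of the 27025 genes with a promoter there. Counted by promoter, the share was 19.6% of all 32851 promoters of the same length. GCGTG was present in Arnt, Egln1, Egln2 and Hif3a, against 35.2% of those genes and 32.4% of all promoters. Of 31 known HIF targets with a promoter in the table, 22 held ACGTG and 22 held GCGTG. The windows with ACGTG are shown for the 4 genes because these include the oxygen-sensing hydroxylases known to respond to HIF, and the capitals mark the match, which is the palindrome CACGTG where both strands match.
Hif1a, chr12:73907714-73907755, plus strand: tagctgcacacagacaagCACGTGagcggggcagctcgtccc
Hif1a, chr12:73907779-73907819, plus strand: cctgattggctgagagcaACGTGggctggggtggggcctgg
Egln1, chr8:124949300-124949340, minus strand: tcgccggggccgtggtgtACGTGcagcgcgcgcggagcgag
Egln2, chr7:27166828-27166868, minus strand: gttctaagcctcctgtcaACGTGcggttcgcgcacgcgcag
Egln2, chr7:27166783-27166824, minus strand: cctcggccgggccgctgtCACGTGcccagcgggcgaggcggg
Egln3, chr12:54204081-54204121, minus strand: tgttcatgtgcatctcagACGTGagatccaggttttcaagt
Positions are counted from the RefSeq start of each gene. For Hif1a this lies close to exon 1 of Hif1a-201, which begins at 73907904, and not at the more upstream start of the whole GENCODE gene given above. The matches in Hif1a began 135 and 70 bases before the RefSeq start, that in Egln1 68 bases before it, those in Egln2 48 and 4 bases before it, and that in Egln3 229 bases before it. A match is only a stretch of letters and was not tested for binding.

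The libraries held between 16132442 and 39812939 counted reads, and the counts were analysed with edgeR over 14706 genes with an adjusted p threshold of 0.1. Values are given as CPM, the number of reads scaled to a common library size after TMM normalization. The 6 cardiomyocyte markers (Myh6, Tnnt2, Actn2, Myl2, Tnni3, Ryr2) summed to between 57900 and 66800 CPM in every group and the 4 atrial markers to at most 18.0 CPM. The sample labels give female animals and the study's design gives males. Xist stood below 4 Y-linked genes in 11 samples and above them in diabetic Hif1a+/- replicate 72 (3599 Xist counts against 26 Y-linked counts), so that values without this animal are given for the Hif1a result. Red cell markers were uneven, with 7320 CPM in non-diabetic Wt replicate 25 and 1770 CPM in diabetic Wt replicate 50 against 185 to 734 CPM in the other 10 samples. In these bulk samples, fewer cells of a type and less RNA per cell cannot be told apart.

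The comparison of Hif1a+/- with Wt asked first whether reads from the targeted gene fell. They did not fall. Hif1a had 55.7, 57.0 and 71.8 CPM in non-diabetic Wt (replicates 25, 42 and 89), against 89.4, 78.8 and 88.9 CPM in non-diabetic Hif1a+/- (replicates 14, 32 and 44). In the diabetic pregnancy it had 47.9, 59.3 and 58.6 CPM in Wt (replicates 50, 7 and 80), against 70.5, 64.8 and 81.5 CPM in Hif1a+/- (replicates 66, 72 and 77). Every Hif1a+/- sample thus stood above every Wt sample of the same pregnancy, although non-diabetic Wt replicate 89 stood above 2 of the diabetic Hif1a+/- samples. Over the animals of the non-diabetic pregnancy, the mean was 61.5 ± 8.96 CPM (SD, n = 3) for Wt and 85.7 ± 6.01 CPM (SD, n = 3) for Hif1a+/-. Over those of the diabetic pregnancy it was 55.3 ± 6.37 CPM (SD, n = 3) for Wt and 72.3 ± 8.49 CPM (SD, n = 3) for Hif1a+/-. These values rest on 894 to 2746 reads per sample.

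**Figure D1:**
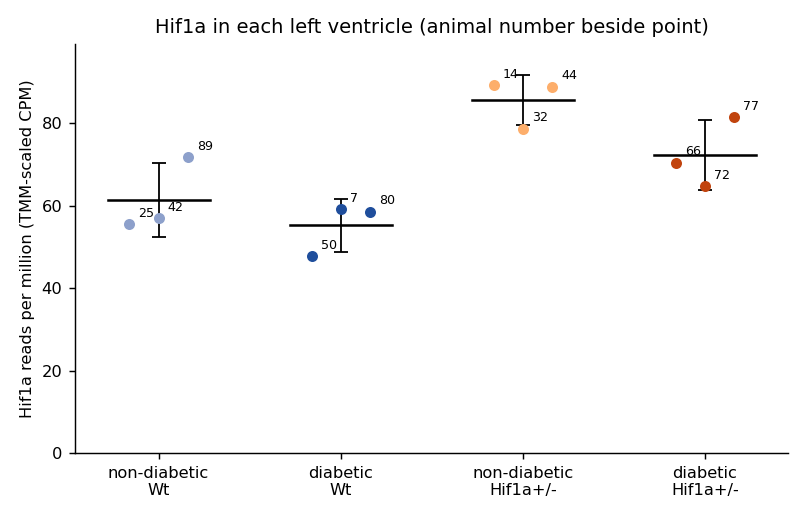
Hif1a level (vertical axis, TMM-scaled CPM, from 0) in each of the 12 LV samples, by group on the horizontal axis; each point is one animal with its number, the wide bar is the group mean and the error bar is 1 SD (n = 3). In both pregnancies the Hif1a+/- points sit above the Wt points, at 78.8 to 89.4 against 55.7 to 71.8 CPM and at 64.8 to 81.5 against 47.9 to 59.3 CPM.

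Averaged over both pregnancies, Hif1a was 1.35-fold higher in Hif1a+/- (log2 fold change 0.43, SE 0.09, 95% interval 0.24 to 0.62, edgeR unadjusted p = 0.000243). The interval lies above 0, and so also above the log2 change of -1 that loss of the reads of 1 of 2 equal alleles would give. Hif1a ranked 6 of 14706 genes by p, but its edgeR p adjusted over all genes was 0.596 and did not pass the threshold. DESeq2, the study's tool, called it (adjusted p = 0.0314), and limma-voom with sample weights did not (adjusted p = 0.155). In an exact two-sided permutation test of log2 CPM, with genotype permuted within each pregnancy, p was 0.005, the smallest that the 400 relabellings can give. The difference was 0.48 (SE 0.12, unadjusted p = 0.00182, adjusted p = 1) in the non-diabetic and 0.39 (SE 0.12, unadjusted p = 0.00768, adjusted p = 0.862) in the diabetic pregnancy on the log2 scale in edgeR. It did not differ detectably between the pregnancies, with an interaction of -0.09 (95% interval -0.47 to 0.28, edgeR unadjusted p = 0.607), which ran from -0.22 without non-diabetic Wt replicate 89 to -0.01 without diabetic Hif1a+/- replicate 72. Without diabetic Hif1a+/- replicate 72 the log2 fold change was 0.47 (edgeR unadjusted p = 0.000227, adjusted p = 0.568), and without the red-cell-rich replicate 25 it was 0.40 (edgeR unadjusted p = 0.000921, adjusted p = 1). Among all tested genes, 2.55% stood higher in Hif1a+/- without overlap in the non-diabetic, 4.32% in the diabetic and 0.136% in both pregnancies, and 0.0259% of the genes with a DESeq2 adjusted p were called by it.

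Some cell type markers also differed with genotype in the mean of both pregnancies, though not alike in each pregnancy. The 4 tested red cell markers all stood lower in Hif1a+/-, with Hba-a1, a hemoglobin alpha chain, at a log2 fold change of -1.81 (edgeR unadjusted p = 0.00833). In the non-diabetic pregnancy 4 had an unadjusted p under 0.05 (0.959% of all tested genes did), and in the diabetic 0 (5.35%). The list summed to 491 to 7320 CPM in non-diabetic Wt and 497 to 1770 CPM in diabetic Wt, with replicates 25 and 50 the highest. It summed to 361 to 413 CPM in non-diabetic Hif1a+/- and 185 to 734 CPM in diabetic Hif1a+/-. Of the 6 fibroblast markers, 5 were positive and 1, Dcn, was negative (-0.10), with a median of 0.14. Col3a1 and Col1a1 were higher by 0.47 and 0.38 on the log2 scale (edgeR unadjusted p = 0.017 and 0.019). These 3 genes were named after their values were seen. In the non-diabetic pregnancy 4 of the 6 were negative (median -0.05) and 0 had an unadjusted p under 0.05 (0.959% of all tested genes did). In the diabetic pregnancy 5 of the 6 were positive (median 0.31) and 2, both higher, had such a p (5.35% of all tested genes). There DESeq2 called Col3a1 (0.155% of genes with an adjusted p). The summed fibroblast markers were 1090 to 1560 CPM in non-diabetic Wt, 1160 to 1640 CPM in diabetic Wt, 1260 to 1380 CPM in non-diabetic Hif1a+/- and 1260 to 1840 CPM in diabetic Hif1a+/-, so the groups overlapped. In the mean of both pregnancies the 6 smooth muscle and pericyte markers all had negative values, with a median of -0.18, and Tagln, named after its value was seen, had a log2 fold change of -0.33 (edgeR unadjusted p = 0.0179). In the non-diabetic pregnancy 4 of the 6 were positive (median 0.035) and 0 had an unadjusted p under 0.05 (0.959% of all tested genes did). In the diabetic pregnancy 5 of the 6 were negative (median -0.38) and 3, all lower, had such a p (5.35% of all tested genes). There the list summed to 825 to 1050 CPM in Wt and 802 to 877 CPM in Hif1a+/-. The 3 tested Schwann cell markers were also negative in the mean of both pregnancies, with Mbp, named after its value was seen, at -0.39 (edgeR unadjusted p = 0.0294), and the list summed to at most 12.7 CPM. The 6 macrophage markers had a median of 0.13 in that mean. None of them had an unadjusted p under 0.05 there (2.69% of all tested genes did). In the non-diabetic pregnancy 6 of the 6 were negative (median -0.16) and 0 had such a p (0.959% of all tested genes). In the diabetic pregnancy 6 of the 6 were positive (median 0.40) and 1 had such a p (5.35% of all tested genes). The part of these cells in the Hif1a difference was not tested.

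The antisense gene Gm15283 overlaps Hif1a on the minus strand. The study's methods name no strand setting for counting, so reads of the pair cannot be told apart with certainty. Gm15283 had 22 to 73 reads per sample, few beside the 894 to 2746 of Hif1a, and its log2 fold change was 0.39 (edgeR unadjusted p = 0.0308, adjusted p = 0.999). Among the 66 tested genes that start within 5 Mb of Hif1a, 6 had an unadjusted p under 0.05 for genotype (9.09%, against 2.69% of all tested genes). Of these, 5 were higher, Gm15283 among them, and 1 lower. When 1 sample was left out the share ran from 7.58% to 16.7%, the latter without diabetic Wt replicate 80. The share of all tested genes in those fits is not given here. The 3 genes with the smallest p were Rab15, Fut8 and Max. Rab15, a small GTPase of membrane traffic, had 0.436 to 1.29 CPM in the Wt samples and 1.01 to 2.07 CPM in the Hif1a+/- samples, from 7 to 61 reads, with a log2 fold change of 0.91 (edgeR unadjusted p = 0.000803). Fut8, which adds the core fucose to N-glycans, had a log2 fold change of 0.20 (edgeR unadjusted p = 0.00643) and Max, the partner of Myc, one of -0.23 (edgeR unadjusted p = 0.0136). None of the 66 passed an adjusted p of 0.1 in edgeR or DESeq2. Genes on a chromosome segment are not independent of each other.

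**Figure D2:**
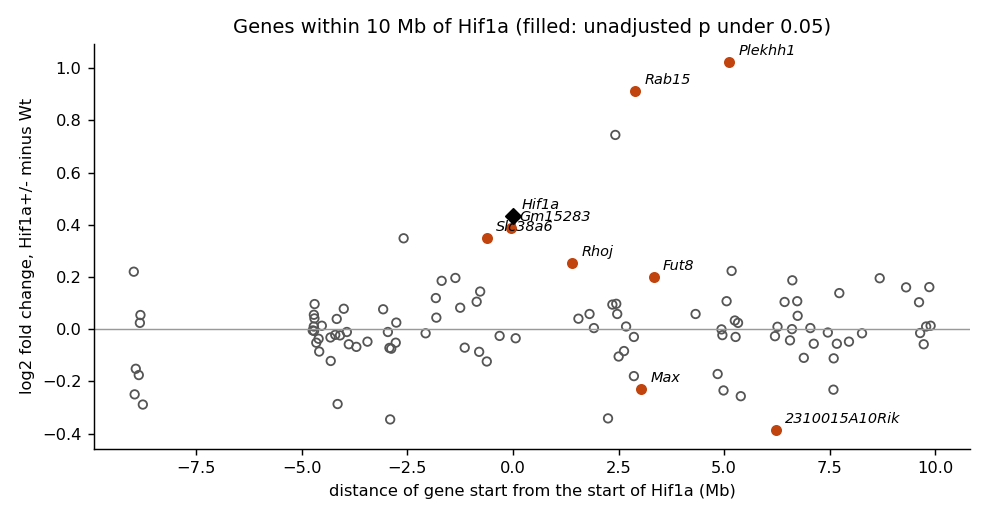
The log2 fold change between Hif1a+/- and Wt (vertical axis, mean of both pregnancies) of the 107 tested genes that start within 10 Mb of Hif1a, against the distance of their starts from its start (horizontal axis, Mb); filled points have an edgeR unadjusted p under 0.05 and the diamond is Hif1a. Hif1a stands at 0.43, Gm15283 at 0.39, Rab15 at 0.91 and Max at -0.23, with the median of the other genes within 5 Mb at -0.01.

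The other HIF subunits did not differ detectably with genotype. Of the 9 genes, edgeR called 0 in the mean over both pregnancies (0% of all tested genes were called), 1 had an unadjusted p under 0.05 (2.69% of all tested genes did), DESeq2 called 1, and the gene was Hif1a in both. The median log2 fold change of the 9 was -0.03, against 0.00 for all tested genes. Epas1, the HIF-2 alpha subunit that is abundant in endothelium, had 472, 395 and 333 CPM in non-diabetic Wt and 381, 492 and 393 CPM in diabetic Wt. In non-diabetic Hif1a+/- it had 424, 441 and 401 CPM and in diabetic Hif1a+/- 408, 345 and 401 CPM. All 4 groups of Epas1 overlapped, with a genotype log2 fold change of -0.03 (95% interval -0.23 to 0.17). Arnt, the common partner, stayed between 48.3 and 62.1 CPM in the 12 samples, with a genotype log2 fold change of -0.01 (95% interval -0.16 to 0.13). Changes of Epas1 beyond 1.13-fold or Arnt beyond 1.10-fold upward lie outside these intervals.

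Hif3a, an alpha subunit with isoforms that can restrain the other HIFs, gave few reads. It had 2.06, 0.909 and 1.96 CPM in non-diabetic Wt and 1.25, 4.22 and 2.34 CPM in diabetic Wt. In Hif1a+/- it had 2.69, 0.958 and 1.06 CPM after non-diabetic and 2.75, 1.50 and 1.02 CPM after diabetic pregnancy. The highest sample, diabetic Wt replicate 7, stood 4.64-fold above the lowest, and each group spanned a wide range. From 17 to 124 reads per sample, its genotype log2 fold change was -0.28 with a 95% interval of -1.07 to 0.50. The interval takes in levels from 0.477 to 1.42 times those of Wt, so neither a fall nor a rise of that size is excluded. The coefficient of variation within groups was 38.8% to 62.0%.

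Of the hydroxylases, Egln1 (PHD2), the main prolyl hydroxylase of the alpha subunits, was the most abundant. It ranged from 596 to 823 CPM and its genotype log2 fold change was -0.01 (95% interval -0.19 to 0.17). Egln2 (PHD1) ranged from 60.2 to 76.3 CPM, with a log2 fold change of -0.06 (95% interval -0.20 to 0.08). For both genes the Wt and Hif1a+/- samples overlapped in each pregnancy. Egln3 (PHD3), the prolyl hydroxylase most responsive to hypoxia in many cells, was the more variable one. It had 521, 319 and 284 CPM in non-diabetic Wt and 573, 342 and 224 CPM in diabetic Wt. In Hif1a+/- it had 255, 348 and 385 CPM after non-diabetic and 396, 250 and 243 CPM after diabetic pregnancy. The 2 highest values belonged to Wt replicates 25 and 50, the samples richest in red cell markers, but the Wt groups also held the lowest value, that of replicate 80. Its genotype log2 fold change of -0.27 (SE 0.22, 95% interval -0.75 to 0.21, edgeR unadjusted p = 0.242) was within the spread between samples. It was -0.06 without replicate 50, -0.12 without replicate 25 and -0.41 without replicate 80.

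Vhl, the substrate-binding part of the ubiquitin ligase, varied least of the 9, with a coefficient of variation of 6.84% over the 12 samples. It stayed between 13.1 and 16.5 CPM with a genotype log2 fold change of -0.03 (95% interval -0.20 to 0.14). Hif1an, the asparaginyl hydroxylase also called FIH, ranged from 92.7 to 132 CPM with a genotype log2 fold change of -0.05 (95% interval -0.26 to 0.16). A p over the threshold does not show equal expression, but for Arnt, Egln1, Egln2 and Vhl the intervals take in only levels from 0.872 to 1.12 times those of Wt.

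**Figure D3:**
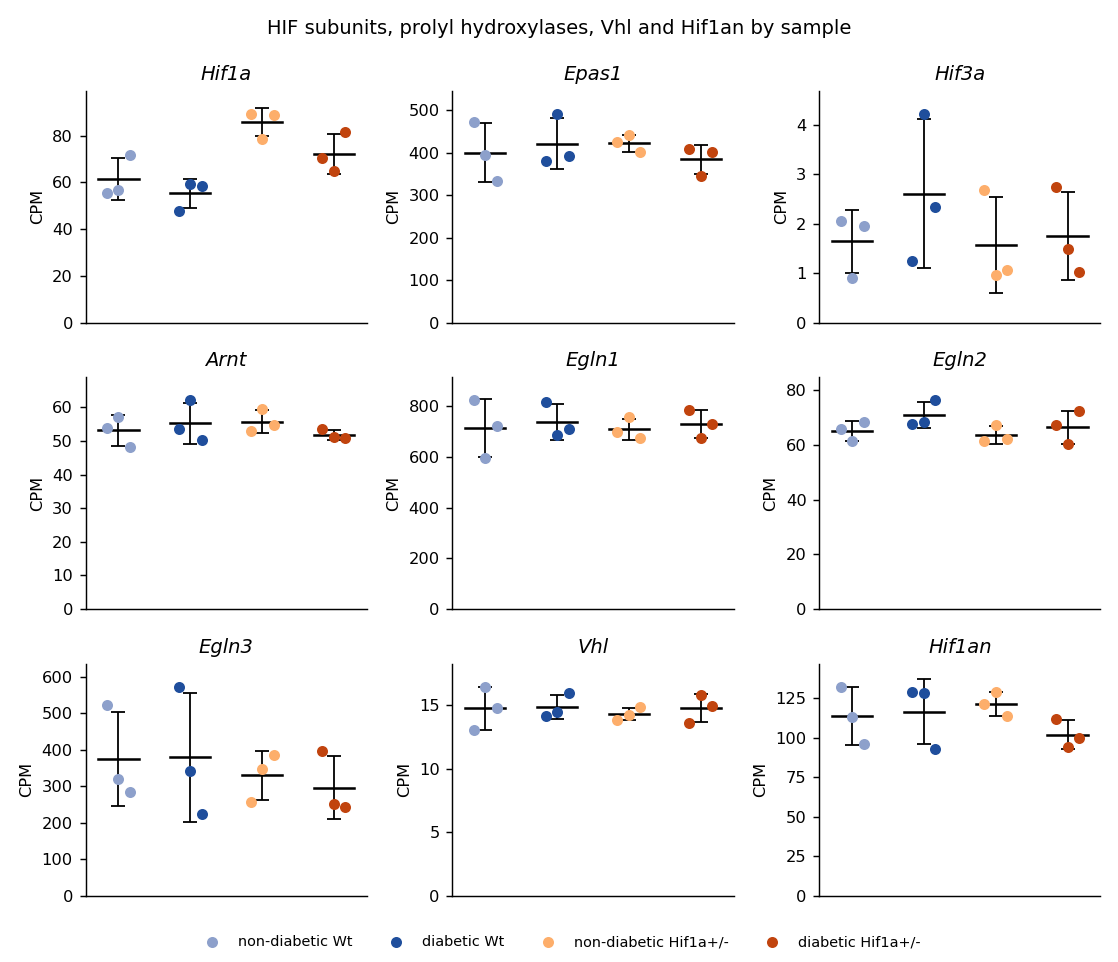
CPM (vertical axes, each from 0) of the 9 genes in the 12 LV samples, coloured by group, with the group mean as a wide bar and 1 SD as the error bar (n = 3); the horizontal position only separates groups and animals. Hif1a is the one gene whose Hif1a+/- points clear the Wt points of the same pregnancy, Hif3a and Egln3 are the most scattered (0.909 to 4.22 and 224 to 573 CPM), and Vhl stays between 13.1 and 16.5 CPM.

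Exposure to maternal diabetes was compared next, to ask whether the oxygen-sensing genes of the adult heart carried a mark of the diabetic pregnancy. No gene of the 9 passed in edgeR in the mean of both genotypes (0% of all tested genes were called), 1 had an unadjusted p under 0.05 (11.3% of all tested genes did), and DESeq2 called 0 (1.46% of genes with an adjusted p). The one gene was Hif1a, which was lower after diabetic pregnancy by a log2 fold change of -0.20 (SE 0.09, 95% interval -0.39 to -0.01, edgeR unadjusted p = 0.0379, adjusted p = 0.427). Its value was -0.15 in Wt (edgeR unadjusted p = 0.233) and -0.25 in Hif1a+/- (edgeR unadjusted p = 0.065), the groups overlapped in both genotypes, and without replicate 72 the mean was -0.16 (edgeR unadjusted p = 0.11). The value in Wt rested on single samples, at -0.03 without non-diabetic Wt replicate 89 and -0.06 without diabetic Wt replicate 50.

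Within Hif1a+/- animals, edgeR called 0 of the 9 genes (0% of all tested genes), 0 had an unadjusted p under 0.05 (12% of all tested genes) and DESeq2 called 0 (1.44%). Hif1an was the gene of the set whose diabetic and non-diabetic samples did not overlap there, at 112, 94.0 and 99.7 CPM after diabetic and 122, 129 and 114 CPM after non-diabetic pregnancy. Its log2 fold change was -0.25 (SE 0.14, 95% interval -0.55 to 0.04, edgeR unadjusted p = 0.0881), and 13.2% of all tested genes stood lower without overlap in the same comparison, so the separation is not particular to Hif1an. In Wt, Hif1an had 132, 113 and 95.8 CPM after non-diabetic and 129, 129 and 92.7 CPM after diabetic pregnancy, with complete overlap. The interaction of -0.29 (95% interval -0.71 to 0.13, edgeR unadjusted p = 0.158) did not separate the genotypes.

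Within Wt animals, edgeR called 0 of the 9 genes (0% of all tested genes), 0 had an unadjusted p under 0.05 (2.78% of all tested genes) and DESeq2 called 0 (0.0148%). Hif3a had the largest value, a log2 fold change of 0.70 (SE 0.51, 95% interval -0.41 to 1.81), which rested on replicate 7 and was 0.13 without it. The remaining genes moved little with maternal diabetes in the mean of both genotypes. Egln2 had a log2 fold change of 0.09 (95% interval -0.04 to 0.23), Egln1 of 0.04 (95% interval -0.13 to 0.22), Egln3 of -0.07 (95% interval -0.54 to 0.41), Arnt of -0.02 (95% interval -0.17 to 0.12), Epas1 of -0.03 (95% interval -0.23 to 0.17) and Vhl of 0.03 (95% interval -0.14 to 0.19). In the genotype by diabetes interaction, edgeR called 0 of the 9 (0% of all tested genes), 0 had an unadjusted p under 0.05 (2.52% of all tested genes) and DESeq2 called 0 (0% of genes), and their values ran from -0.54 for Hif3a to 0.04 for Vhl.

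**Figure D4:**
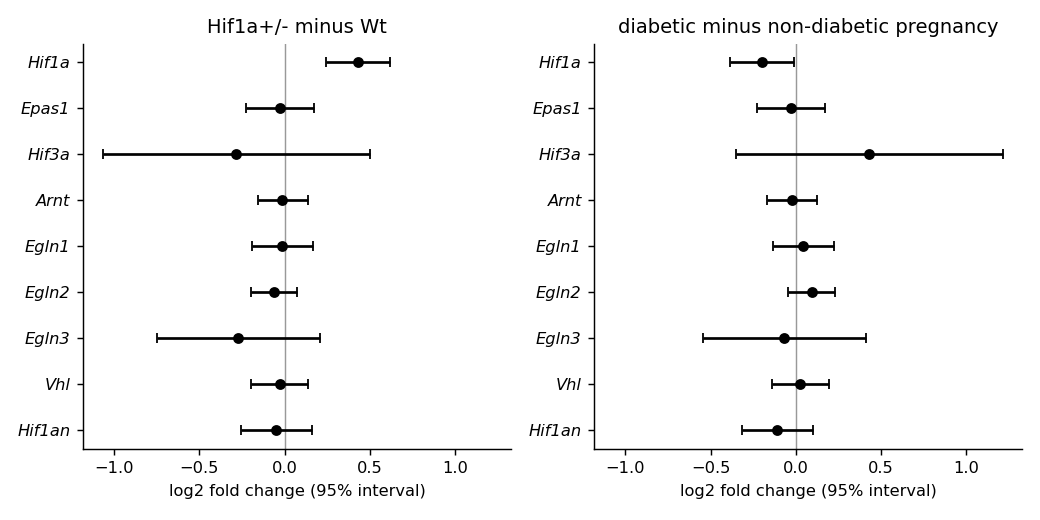
The log2 fold change of each of the 9 genes (horizontal axis, points with 95% intervals from edgeR) between Hif1a+/- and Wt (left, mean of both pregnancies) and between diabetic and non-diabetic pregnancy (right, mean of both genotypes). The interval of Hif1a lies above 0 for genotype (0.24 to 0.62) and just below 0 for diabetes (-0.39 to -0.01), and the other intervals cross 0, the widest being that of Hif3a.

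In the separate pregnancies, edgeR called 0 of the 9 genes for genotype in the non-diabetic (0% of all tested genes) and 0 in the diabetic comparison (0%), with Hif1a the 1 gene at an unadjusted p under 0.05 in each (0.959% and 5.35% of all tested genes), and DESeq2 called 0 in each (0.00369% and 0.155%). When all 4 groups were tested at once, edgeR called 0 (0% of all tested genes), and Hif1a was again first of the 9, with an edgeR unadjusted p of 0.000946 and adjusted p of 0.335. DESeq2 called Hif1a alone of the 9 in that test (adjusted p = 0.00632, 0.76% of genes called), and of all tested genes 6% had an edgeR unadjusted p under 0.05.

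The levels of the 9 genes spanned a wide range within the same heart. By mean CPM in non-diabetic Wt, Egln1 came first at 714 ± 114 (SD, n = 3), followed by Epas1 at 400.1 ± 69.8, Egln3 at 375 ± 128, Hif1an at 114 ± 18.3, Egln2 at 65.1 ± 3.63, Hif1a at 61.5 ± 8.96, Arnt at 53.1 ± 4.51, Vhl at 14.8 ± 1.69 and Hif3a at 1.64 ± 0.636 (SD, n = 3 each). The neighbours Epas1 and Egln3 did not differ beyond their spread, and neither did Egln2 and Hif1a or Hif1a and Arnt, whereas the other neighbours did not overlap over the 12 samples. In 3′-seq, CPM is close to a count of transcripts and is not divided by length. Per kb of merged exon length, Egln1 was still first at 199 CPM per kb, and Egln3 (141) moved above Epas1 (71.6) and Egln2 (23.3) above Hif1an (17.2). By the median over all 12 samples in CPM, Hif1a (67.7) and Egln2 (67.2) changed places. The alpha subunit Epas1 therefore gave more reads than Hif1a in each of the 12 samples, on the CPM scale and also per kb in non-diabetic Wt, where Hif1a stood at 10.4 CPM per kb.

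The genes whose log2 CPM followed Hif1a, Hif3a and Egln3 most closely over the 12 samples are given as a description, and being the highest among all tested genes they are high by selection. Closest to Hif1a were Zmat4, a zinc finger gene (Pearson's r 0.89, Spearman's rho 0.90, at 0.185 to 0.883 CPM), Mta2, a subunit of the NuRD chromatin complex (0.84 and 0.73), and Gtf2a1, a subunit of the general transcription factor TFIIA (0.80 and 0.77). Closest to Hif3a were Timp4, an inhibitor of metalloproteinases (0.94 and 0.89), and Trarg1, which acts in the traffic of the glucose transporter GLUT4 (0.94 and 0.93). Closest to Egln3 were Etf1, a translation termination factor (0.96 and 0.94), Tab2, an adaptor of the kinase TAK1 (0.95 and 0.91), and Rdx, the membrane-cytoskeleton linker radixin (0.94 and 0.90). Within the set itself, Egln3 and Hif1an had an r of 0.74, Egln3 and Vhl of -0.61, Egln3 and Egln1 of 0.57 and Egln3 and Hif1a of -0.44, and the r of Egln3 with the other 4 genes ran from -0.15 to 0.37. All of these points share libraries and their depth.

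Known targets of HIF were taken as a readout of the pathway, in 3 lists of 41 genes, of which 38 were tested. No target passed in edgeR or in DESeq2 for genotype. At an unadjusted p under 0.05, 5 targets were lower in Hif1a+/- and 0 were higher (1.29% and 1.4% of all tested genes). The median log2 fold change of the 38 was -0.12, and 32 of them (84.2%) had a negative value, against a median of 0.00 and 52.0% of all tested genes. The glycolytic list had a median of -0.12 with 14 of 16 negative, the vascular list one of -0.17 with 5 of 8 negative, and the remaining targets one of -0.12 with 13 of 14 negative. Targets are not independent of each other.

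Ddit4, an inhibitor of mTOR complex signalling that is induced by hypoxia, had the smallest p of the targets. It had 40.8, 31.3 and 43.8 CPM in non-diabetic Wt, 24.1, 47.4 and 44.1 CPM in diabetic Wt, 35.4, 23.3 and 32.9 CPM in non-diabetic Hif1a+/- and 24.1, 19.3 and 25.1 CPM in diabetic Hif1a+/-, with overlap in both pregnancies. Its log2 fold change was -0.55 (SE 0.16, edgeR unadjusted p = 0.00467, adjusted p = 0.999). Kdm3a, a histone demethylase, had one of -0.24 (edgeR unadjusted p = 0.0193), Ankrd37, an ankyrin repeat gene with a strong hypoxia response, one of -0.39 (edgeR unadjusted p = 0.0487), and Gapdh and Slc16a3, named after their values were seen, -0.23 and -0.25 (edgeR unadjusted p = 0.0134 and 0.0443). These means were not alike in each pregnancy. Ddit4 stood at -0.34 in the non-diabetic and -0.755 in the diabetic pregnancy (edgeR unadjusted p = 0.162 and 0.00548). Kdm3a stood at -0.08 in the non-diabetic and -0.41 in the diabetic pregnancy, and Slc16a3 at -0.50 and -0.002. Ankrd37 stood at -0.387 and -0.385 and Gapdh at -0.24 and -0.23. The interaction of Slc16a3 was 0.50 (edgeR unadjusted p = 0.0455, adjusted p = 0.998). Of the remaining fixed targets, none passed an unadjusted p of 0.05 in the mean of both pregnancies. Ldha, which makes lactate, had a log2 fold change of -0.17 (edgeR unadjusted p = 0.0522), Pdk1, which restrains pyruvate oxidation, -0.11 (edgeR unadjusted p = 0.122), Slc2a1, the glucose transporter GLUT1, -0.12 (edgeR unadjusted p = 0.337), Bnip3, a mitophagy receptor, -0.21 (edgeR unadjusted p = 0.107), the vascular growth factor Vegfa -0.33 (edgeR unadjusted p = 0.173) and the vasodilator peptide Adm -0.17 (edgeR unadjusted p = 0.377). In the non-diabetic and diabetic pregnancy, Ldha stood at -0.25 and -0.10 (edgeR unadjusted p = 0.0484 and 0.415). Pdk1 stood at 0.02 and -0.24 (edgeR unadjusted p = 0.801 and 0.022). In these comparisons 0.959% and 5.35% of all tested genes had an unadjusted p under 0.05. The number of targets lower at an unadjusted p under 0.05 was 2 without non-diabetic Wt replicate 25, 3 without diabetic Wt replicate 50, 3 without diabetic Hif1a+/- replicate 77, 8 without diabetic Hif1a+/- replicate 66, 9 without diabetic Wt replicate 7, 10 without non-diabetic Wt replicate 42 and 12 without diabetic Wt replicate 80, whereas the median stayed between -0.15 and -0.09 over the 12 fits that each left out 1 sample. The share of all tested genes at that p in these fits is not given here, so the changing number is not read as a result about targets.

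**Figure D5:**
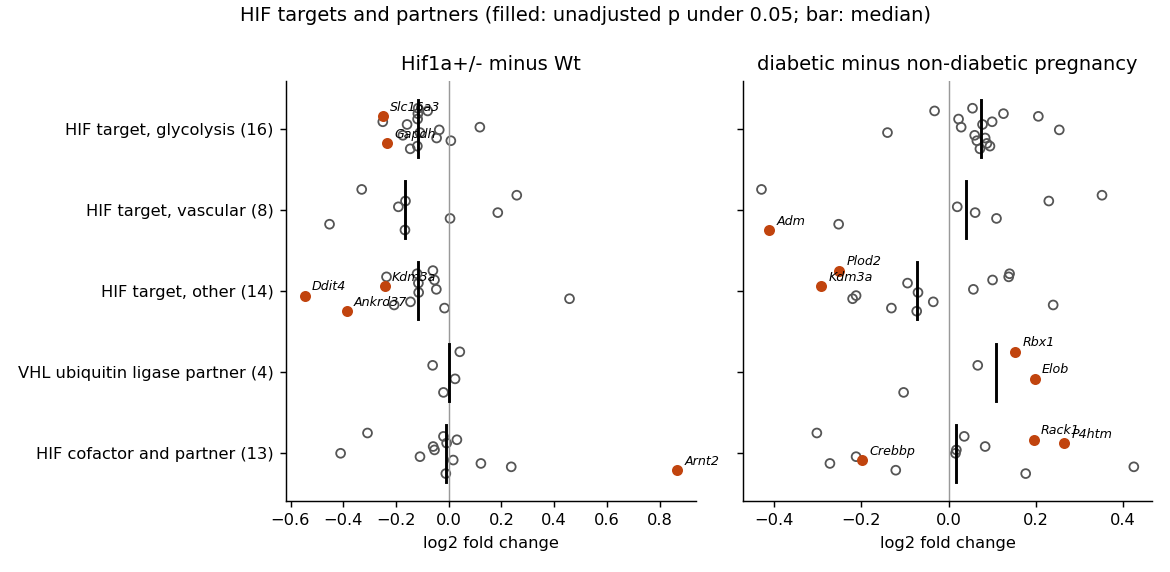
The log2 fold changes (horizontal axes) of the tested HIF targets, partners of Vhl in its ubiquitin ligase and HIF cofactors, one point per gene, by list on the vertical axis with the number tested; left, Hif1a+/- against Wt, right, diabetic against non-diabetic pregnancy. Filled and named points have an edgeR unadjusted p under 0.05 and black bars are list medians, which for genotype stand at -0.12, -0.17 and -0.12 for the 3 target lists.

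With maternal diabetes, no target passed in edgeR or DESeq2. In the mean of both genotypes, 3 targets were lower and 0 higher at an unadjusted p under 0.05 (5.82% and 5.47% of all tested genes). Of the 38, 24 were positive and 14 negative (36.8%, against 50.8% of all tested genes), with a median of 0.06. When 1 sample was left out this median ran from 0.02 (without diabetic Wt replicate 50) to 0.09 (without non-diabetic Wt replicate 25), the number lower from 2 to 4 and the number higher from 0 to 2, the 2 being reached without non-diabetic Wt replicate 25 or diabetic Wt replicate 80. The share of all tested genes in those fits is not given here. With all samples, the 3 lower targets were Plod2, a collagen lysyl hydroxylase, at a log2 fold change of -0.25 (edgeR unadjusted p = 0.00381), Kdm3a at -0.29 (edgeR unadjusted p = 0.00681) and Adm at -0.41 (edgeR unadjusted p = 0.0411). Vegfa had -0.43 (edgeR unadjusted p = 0.0834), Pdk1 -0.14 (edgeR unadjusted p = 0.053), Bnip3 0.24 (edgeR unadjusted p = 0.0665), Slc2a1 0.13, Ldha 0.06 and Ankrd37 -0.07. Split by genotype, 0 of the 38 had an unadjusted p under 0.05 within Wt (2.78% of all tested genes did). Within Hif1a+/-, 3 were lower and 3 higher at that p (12% of all tested genes). Kdm3a stood at -0.13 in Wt and -0.46 in Hif1a+/-, and Plod2 at -0.185 and -0.32. Pdk1 stood at -0.007 and -0.27, and Slc16a3 at -0.04 and 0.455. In Hif1a+/-, limma-voom adjusted p was 0.0468, 0.0872 and 0.0823 for Kdm3a, Plod2 and Pdk1. The share of all genes it called is not given here. Of the 16 glycolytic genes, 14 had a positive and 2 (12.5%) a negative value in the mean of both genotypes, with a list median of 0.08. Of all tested genes, 50.8% were negative there. Within Wt 10 of the 16 were positive (median 0.02), and within Hif1a+/- 13 were (median 0.09). Macrophage markers were higher after diabetic pregnancy in the mean of both genotypes, 5 of 6 at an unadjusted p under 0.05 (5.47% of all tested genes). They were led by Lyz2, the macrophage lysozyme (log2 fold change 0.54, edgeR unadjusted p = 0.00293). Within Wt, 6 of the 6 were positive with a median of 0.19, but 0 had such a p (2.78% of all tested genes did). Within Hif1a+/-, 6 of the 6 had such a p, with a median of 0.83 (12% of all tested genes). Their summed level was 345 to 453 CPM in diabetic Hif1a+/- against 172 to 365 CPM in the other groups. The endothelial marker Emcn had the smallest p of all listed genes (log2 fold change 0.35, edgeR unadjusted p = 0.000102, adjusted p = 0.112, DESeq2 adjusted p = 0.000813), but the 6 endothelial markers went both ways. Of these, 3 were positive and 3 negative with a median of 0.02, and Vwf and Cdh5, named after their values were seen, stood at 0.50 (edgeR unadjusted p = 0.00474) and -0.20 (edgeR unadjusted p = 0.0303). Their summed level overlapped in all 4 groups, within 808 to 1150 CPM. The part of macrophages or endothelial cells in the target values was not tested.

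The partners that work with the HIF subunits and Vhl were also without a call in edgeR or DESeq2. Of the 4 other components of the Vhl ligase (Elob, Eloc, Cul2 and Rbx1), 0 had an unadjusted p under 0.05 for genotype (2.69% of all tested genes did), while 2 of the 4, Rbx1 and Elob, had log2 fold changes of 0.15 and 0.20 after diabetic pregnancy (edgeR unadjusted p = 0.0339 and 0.0358), where 11.3% of all tested genes had such a p. Of 13 cofactors and partners, Arnt2, a paralog of Arnt, was the 1 gene with an unadjusted p under 0.05 for genotype, with a log2 fold change of 0.87 (edgeR unadjusted p = 0.00758, adjusted p = 0.999) from only 5 to 28 reads per sample, at 0.311 to 0.736 CPM in Wt and 0.642 to 1.24 CPM in Hif1a+/-. After diabetic pregnancy 3 of the 13 had an unadjusted p under 0.05, beside the same 11.3% of all tested genes. P4htm, a transmembrane prolyl hydroxylase, and Rack1, which binds HIF-1 alpha, had log2 fold changes of 0.27 and 0.20 (edgeR unadjusted p = 0.0149 and 0.0162), and the coactivator Crebbp one of -0.20 (edgeR unadjusted p = 0.013).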

How the data were processed

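LV RNA of 12 mice was sequenced as 3′-seq libraries. The authors trimmed reads (Trimmomatic), removed ribosomal and mitochondrial reads, aligned them to GRCm38 (STAR 2.5.2b, GENCODE M8) and ran htseq-count on the result. The deposited values are raw read counts of each gene, and the authors' normalized values were not used. Reads aligned to several places (12.4% to 17.0% of those tallied) were not counted on any gene, and no strand setting is stated. Tally lines were left out. Identifiers were matched to GENCODE M21, which named 46488 of 46983 genes.

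edgeR 4.0.16 (R 4.3.3) quasi-likelihood tests used TMM, the default low-count filter by group, 1 mean per group and 12 samples in 1 fit, with Benjamini-Hochberg adjustment over 14706 genes and the study's threshold of 0.1. The biological coefficient of variation was 13.7%. Every sample was a separate animal. Samples of 1 group were distinct (chi-square of their counts 5.35 to 43.3 per degree of freedom, against 1 for sampling noise). The alternatives were DESeq2 1.42.0 (likelihood ratio test for the 4 groups), limma 3.58.1 voom with sample weights, other normalizations, filters and fits, and leaving out each sample. The fits were tested on simulated data. The Python 3.11.15 tables used pandas 2.3.3 and scipy 1.17.1.

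The genes and lists were chosen with earlier results of these data known. Besides the 9 genes, those named were the 3 listed genes with the smallest p for genotype and for diabetes, 8 fixed targets, the 3 genes most like Hif1a, Hif3a and Egln3 (1 of those for Hif3a is not reported here), and the 3 genes within 5 Mb of Hif1a with the smallest p. Others are said to be named after their values were seen, and so were the listed genes Rbx1, Elob, P4htm, Rack1 and Crebbp, and Gm15283.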

Additional observations from a re-analysis of the deposited data

How the results depend on the processing

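Of the 9 genes, 0 were called in any comparison with edgeR, and the number became 1, Hif1a, with DESeq2 in the genotype mean and in the test among the 4 groups, and with edgeR without a low-count filter in the genotype mean, in either pregnancy and in the test among the 4 groups. The cause was not tested, and the share of all genes called without the filter is not given here. Hif1a's genotype log2 fold change was 0.43 with DESeq2 (adjusted p = 0.0314) and 0.44 without the filter (adjusted p = 0.000314), and it stayed between 0.39 and 0.50 when each sample was left out, with 0 of the 9 genes called in each of these fits. In the exact permutation test p was 0.005 or 0.01 without any 1 sample, with 200 relabellings. Scaling by library size alone turned the genotype value of Arnt to 0.006 and of Egln1 to 0.009, and limma-voom that of Vhl for diabetes to -0.00013, all near 0.

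Signs near 0 also turned when 1 sample was left out. For genotype the log2 fold changes then ran from -0.085 to 0.039 for Epas1, -0.62 to 0.004 for Hif3a, -0.045 to 0.031 for Arnt, -0.072 to 0.041 for Egln1, -0.07 to 0.012 for Vhl and -0.12 to 0.009 for Hif1an. For diabetes they ran from -0.087 to 0.045 for Epas1, -0.062 to 0.012 for Arnt, -0.008 to 0.11 for Egln1, -0.27 to 0.10 for Egln3 and -0.007 to 0.074 for Vhl. The genotype values of Hif1a, Egln2 and Egln3 kept their sign in all alternatives run.

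In settings chosen after seeing the data, the number of HIF targets lower in Hif1a+/- at an unadjusted p under 0.05 was 11 without the filter and 9 with limma-voom, against 5. The share of all genes at that p in those 2 settings is not given here, so the higher numbers are not read as a result about targets. The share of genes at that p for genotype within 2 Mb of Hif1a was 16.7% and within 10 Mb 7.48%, against 2.69% of all tested genes. Wt and Hif1a+/- offspring came from the same kind of mating and diabetes was induced in the dams, but the sample labels name no litter or dam. Litter could therefore not be used for pairing or as a factor. Animals that shared a litter, if any, were treated as independent. With 3 animals per group, precision is limited by the spread between animals, and Hif3a and Arnt2 also rest on few reads.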

Other observations

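Beyond the 5 Mb window, DESeq2 called 2 further genes of the same stretch of chromosome 12 for genotype, where it called 0.0259% of the genes with an adjusted p. Both were named after their values were seen. Plekhh1 starts 5.13 Mb from Hif1a and had 0.783 to 1.86 CPM in the 6 Wt samples, 3.22 to 5.69 CPM in non-diabetic Hif1a+/- and 1.50 to 2.16 CPM in diabetic Hif1a+/- (log2 fold change 1.02, edgeR unadjusted p = 0.000344, adjusted p = 0.723). The processed transcript 2310015A10Rik starts 6.22 Mb away and had 50.8 to 60.0 CPM in the 6 Wt samples against 36.8 to 46.4 CPM in the 6 Hif1a+/- samples, with no overlap (log2 fold change -0.39, edgeR unadjusted p = 8.61e-05, adjusted p = 0.596). The share of all tested genes that stood lower without such overlap is not given here, so the separation is not read as particular to this gene.

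Epo, the hormone of red cell formation and a known HIF target, had 0 counts in all 12 libraries. Car9, a carbonic anhydrase that is strongly induced by hypoxia in many cells, had 3 to 17 reads per library and a genotype log2 fold change of 0.46 (edgeR unadjusted p = 0.221).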
